A study of Mus musculus with 23 samples.

Results

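The genes described here are enzymes, regulators and a cystine importer that serve to make and recycle glutathione, remove peroxides and superoxide, and modify foreign compounds. They were listed by name, 40 in all, and each was read from the transcript cluster of the array that carried its symbol alone, taking the cluster with the highest mean where a gene had several. Of the 40, 37 had such a cluster, out of 22180 genes on the array with one. Gstm5 and Prdx1 were represented only by clusters shared with other genes, and these and Por were not analysed here. Of the 37 genes, 36 had a mean above 2.72, the first quartile of all corrected values, in at least 1 group. Gsta3, an alpha-class glutathione transferase, was below it in every group.

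Glutathione is a small peptide that donates electrons. Gclc and Gclm, the subunits of glutamate-cysteine ligase, and Gss build it, Slc7a11 imports the cystine from which its cysteine comes, peroxidases and transferases spend it, and Gsr returns its oxidized form to use. Many of these genes are known targets of Nrf2, the transcription factor encoded by Nfe2l2, which Keap1 holds for degradation until oxidants or electrophiles modify it. Enzymes for foreign compounds work in sequence, oxidation or hydrolysis first and conjugation, often to glutathione, after it. SCs below are Schwann cells, the glia of peripheral nerve.

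The series is a mouse model of neurofibroma, the benign nerve sheath tumor of neurofibromatosis type 1, in which DhhCre deletes a floxed Nf1 gene in the SC lineage from the embryo on. SCs were sorted as p75+ cells and macrophages as F4/80+;CD11b+ cells. Wild-type nerve and dorsal root ganglia came from 1-month-old Nf1 fl/fl mice without Cre (3 SC and 3 macrophage arrays). Mutant nerve came from mice of that age with the same floxed allele and DhhCre (3 and 5 arrays), at an age the study describes as before tumors form although the labels call the tissue neurofibroma. Neurofibroma came from Nf1 fl/fl;DhhCre animals aged 7 months (3 and 4 arrays). The labels give a mixed C57BL/6 and BALB/c background for all groups, and all carried the floxed allele. Tissue of several 1-month-old mice was pooled for each sort, and sorted mutant SCs were a mixture of recombined and unrecombined cells, whereas macrophages were labelled Nf1 wild type. No 7-month-old wild-type mice were among the arrays used here, so tumor and age cannot be told apart.

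Levels are log2 values from single-color arrays, so a difference of 1 is a 2-fold difference, and levels of different genes are not compared because each has its own probes. The number of arrays limits the precision. The deposited arrays lay on 2 levels that followed age, with medians of 3.74 to 3.86 at 1 month and 2.92 to 2.97 at 7 months, and one universal control RNA was run at each level (3.88 and 3.04). The values given below were corrected for these 2 array sets with ComBat. Differences between SCs and macrophages of the same age are not moved by an additive offset between the sets, and nor is the difference between the cell types in their change with age, whereas a change from 1 to 7 months rests on the single pair of universal controls. Below, called means that limma gave an adjusted p below 0.05 together with more than a 2-fold difference. Sorting markers followed the labels for macrophages, with Adgre1, which encodes F4/80, lower in SCs by 6.44, 6.98 and 5.93 log2 units in the 3 tissues. For SCs, 16, 15 and 16 of 20 SC markers were called higher than in macrophages and none lower. Sox10, the SC lineage factor, was higher in SCs by 1.83, 1.53 and 1.65, and Ngfr, which encodes p75, by 0.71, 0.94 and 1.07, called in neurofibroma alone. Nf1 differed between mutant and wild-type SCs by -0.32 ± 0.13 (SE) and was not called. Markers of other cell types were also high in the SC arrays, although the study describes its p75+ cells as lacking EGFR, a receptor that fibroblasts carry. The mean of 18 fibroblast markers was 7.58 to 7.94 in 1-month SC arrays, 6.59 to 6.86 in neurofibroma SCs, 4.53 to 6.19 in 1-month macrophages and 4.16 to 4.26 in neurofibroma macrophages, and 15, 17 and 13 of the 18 were called higher in SCs in the 3 tissues. Fewer cells of a type and less RNA per cell cannot be told apart in such samples. Transcripts of the seminal vesicle, a mean over 7 genes, stood at 3.89 to 8.48 in 5 arrays (SCs of wild-type nerve 2 and 3, macrophages of wild-type nerve 5 and 6, neurofibroma SCs s4992) and at 1.95 to 2.63 in the other 16.

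Because Nrf2 acts on short DNA elements, the promoters of the genes were read first. The core of the antioxidant response element, searched on both strands as TGACNNNGC, was found in the window from 250 bases before to 50 bases after the annotated start of 8 of the 28 genes that had a window in the RefSeq table (GRCm38.p6), which is 28.6%, against 3781 of all 27025 genes with a window. The 8 were Nfe2l2, Srxn1, Txnrd1, Gclm, Gsta3, Mgst1, Sod1 and Aldh1a2. Slc7a11 and Nqo1 were among the genes whose windows held no match. Gsr, Gclc and Hmox1 were among those without a window, so their promoters were not read. A match of letters is not a bound site. The matches printed here were chosen because the results below turn on their genes or, for Nfe2l2, on the factor itself, each read 5′ to 3′ along the strand that holds the match, with the fixed letters of the element in capitals. They lie at chr3:122245415-122245439 (Gclm), chr10:82859106-82859130 (Txnrd1), chr2:75704887-75704911 (Nfe2l2) and chr6:138140463-138140487 (Mgst1). All are on the minus strand, which is the strand of the Nfe2l2 gene and opposite to the other genes. A gene could have several annotated starts. Txnrd1 had 3 windows, and its match lies by a start inside the gene, which begins at chr10:82833951.
Gclm: gtgagagtTGACggtGCgcccggga
Txnrd1: tgtcagaaTGACaaaGCaaaaatcc
Nfe2l2: agcccaccTGACtccGCcatgcccc
Mgst1: ccgcctccTGACcgtGCcaagcccc

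The first question was how the 2 cell types differ in these genes. The 5 genes grouped as Nrf2 marker enzymes were Nqo1, Hmox1, Srxn1, Txnrd1 and Slc7a11, the last a transporter. Of these 2, 3 and 1 were called higher in macrophages in wild-type nerve, mutant nerve and neurofibroma. Of the 4 genes of glutathione synthesis and recycling 3, 3 and 1 were. None of either group was called higher in SCs. Of the 5 peroxidases 3, 2 and 1 were called higher in SCs, of the 8 transferases 5, 3 and 3, and of the 4 other xenobiotic enzymes 4, 3 and 4, with none higher in macrophages. In wild-type nerve 14 of the 37 genes were called higher and 5 lower in SCs, where 8.94% and 5.03% of all genes were called higher and lower. In mutant nerve the counts were 12 and 6 (7.26% and 5.75% of all genes) and in neurofibroma 10 and 3 (6.50% and 5.91%). The median difference of the 37 was 0.56, 0.45 and 0.00, against -0.06, 0.00 and -0.02 over all genes. Called in the same direction in all 3 tissues were 9 genes higher in SCs (Aldh1a1, Cyp1b1, Fmo1, Fmo2, Gpx8, Gsta4, Gstm2, Gstp1 and Sod3) and 2 higher in macrophages (Gsr and Slc7a11), as were 4.43% and 3.53% of all genes. Another 14 of the 37 genes were called in none of the 3 tissues, as were 80.9% of all genes. The 14 include Sod1, which differed by -0.02 to -0.18, Hmox1, by -0.11 to -0.27, and the lipid peroxidase Gpx4, by -0.08 to 0.80. The others were Nfe2l2, Keap1, Srxn1, Gss, Gpx3, Gsta3, Gstm1, Mgst1, Aldh1a2, Aldh2 and Aldh3a1. Aldh1a2, which makes retinoic acid, had -1.09 ± 0.45, -0.95 ± 0.40 and -0.99 ± 0.42 (adjusted p = 0.0676, 0.084 and 0.103).

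**Figure D1:**
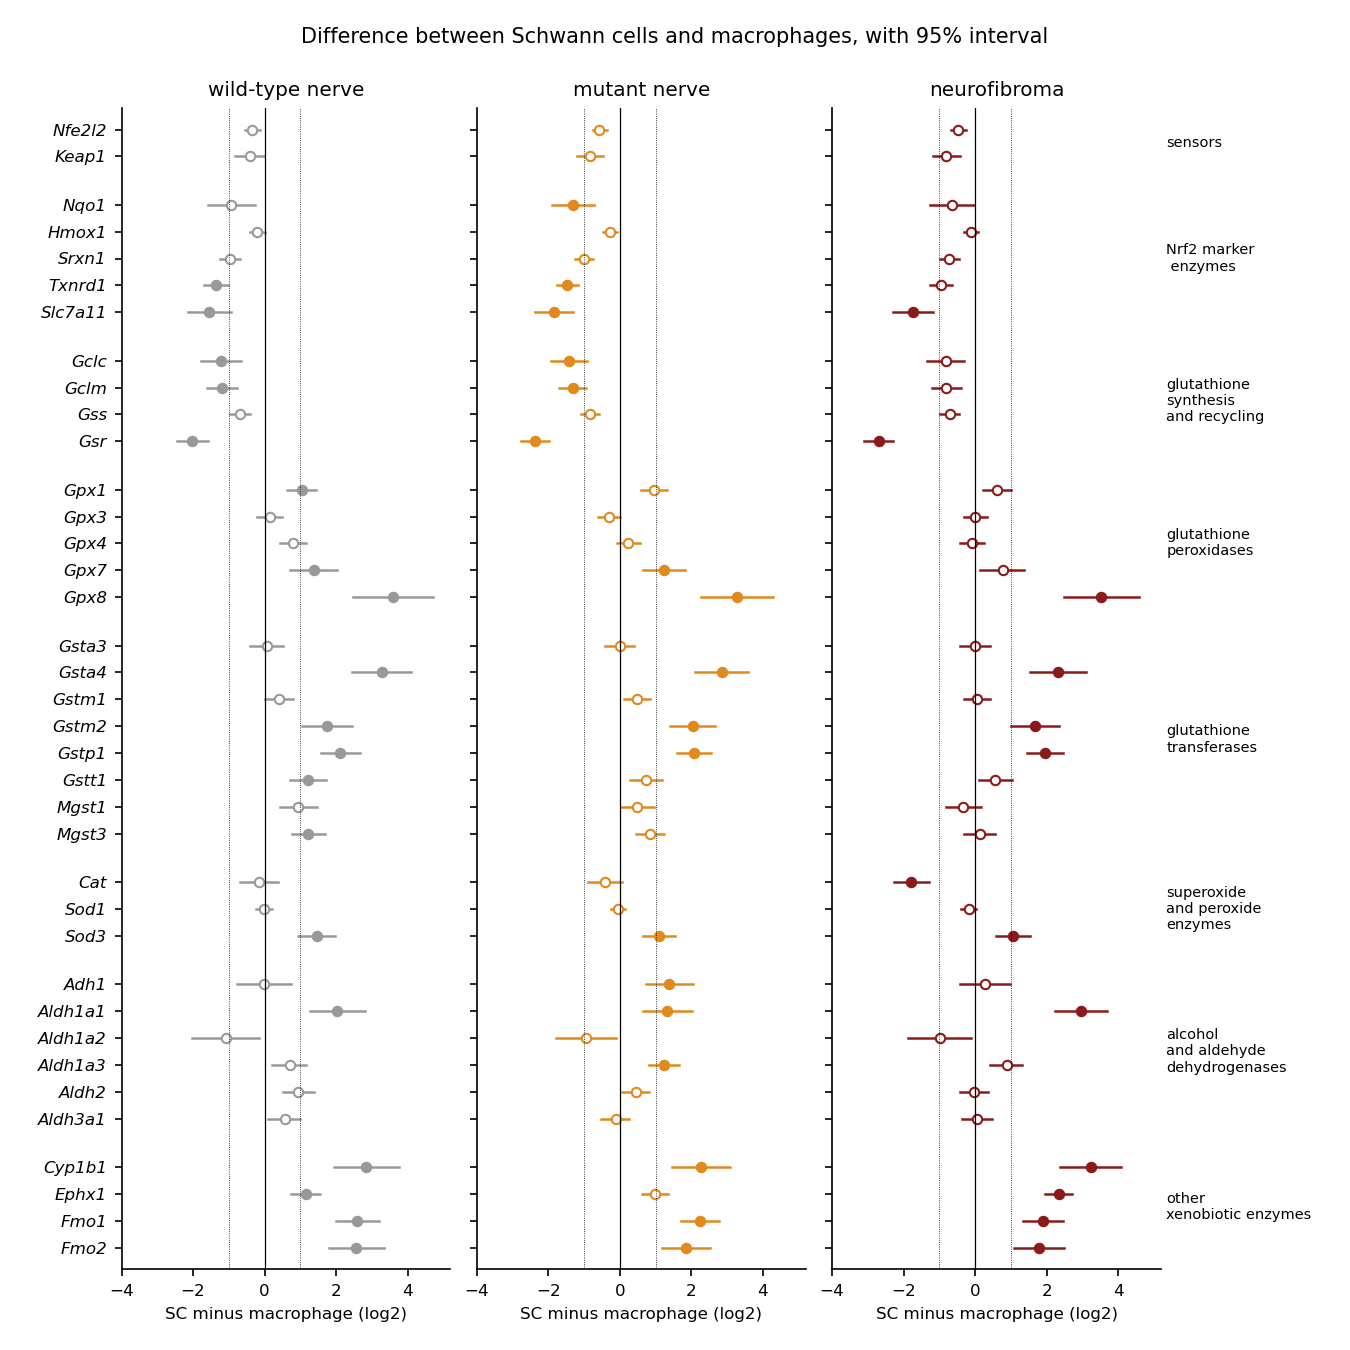
Difference in log2 level between SCs and macrophages (SC minus macrophage) for 37 genes, ordered by role, in each of the 3 tissues. Circles are limma estimates with 95% intervals, filled where the gene was called, and dotted lines mark a 2-fold difference; the first 3 role groups lie left of 0 in every panel and Gpx8, Gsta4 and Cyp1b1 lie farthest to the right in wild-type nerve.

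Gsr, glutathione reductase (chr8:33653238-33698162 in GRCm38.p6, as for the genes below), had the largest difference in favor of macrophages among the 37 genes in each tissue. In SCs Gsr read 6.21, 6.50 and 6.95 in wild-type nerve, 6.70, 6.43 and 6.53 in mutant nerve and 5.78, 6.09 and 6.52 in neurofibroma. Gsr in macrophages stood at 8.90, 8.37 and 8.45 (wild-type nerve), 9.21, 8.98, 8.97, 8.61 and 8.84 (mutant nerve) and 8.87, 8.60, 8.76 and 9.12 (neurofibroma). No SC array reached the lowest macrophage array. The difference was -2.02 ± 0.21 (SE) in wild-type nerve, -2.36 ± 0.19 in mutant nerve and -2.70 ± 0.20 in neurofibroma, with limma adjusted p of 2.91e-07, 6.19e-09 and 1.25e-09. Slc7a11, the cystine importer, was the other gene higher in macrophages in all 3 tissues. In SCs Slc7a11 read 7.98, 8.77 and 8.52 in wild-type nerve, 7.84, 8.76 and 8.33 in mutant nerve and 9.61, 8.65 and 10.25 in neurofibroma. Slc7a11 in macrophages stood at 9.94, 9.95 and 10.04 (wild-type nerve), 10.30, 10.34, 10.14, 9.97 and 10.02 (mutant nerve) and 11.34, 11.13, 11.12 and 11.33 (neurofibroma). Within each tissue every macrophage array lay above every SC array, by a difference of -1.55 ± 0.29, -1.84 ± 0.26 and -1.73 ± 0.27 (adjusted p = 0.000266, 9.79e-06 and 3.34e-05).

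Both subunits of glutamate-cysteine ligase were also higher in macrophages of the younger mice. The catalytic subunit Gclc was lower in SCs by 1.22 ± 0.27 in wild-type and 1.42 ± 0.24 in mutant nerve (adjusted p = 0.00131 and 8.46e-05), and the modifier subunit Gclm differed by -1.19 ± 0.20 and -1.32 ± 0.18 (adjusted p = 0.000116 and 9.02e-06). Without macrophage array 4 of wild-type nerve the Gclc value there was -0.83 and was no longer called. In neurofibroma both kept an adjusted p under 0.05 in the same direction but were under 2-fold, at -0.82 ± 0.25 and -0.80 ± 0.19. In SCs Gclm read 8.24, 8.02 and 8.70 in wild-type nerve, 8.25, 8.33 and 8.26 in mutant nerve and 8.69, 8.61 and 9.33 in neurofibroma. Gclm in macrophages stood at 9.66, 9.52 and 9.35 (wild-type nerve), 9.84, 9.79, 9.74, 9.32 and 9.30 (mutant nerve) and 9.60, 9.49, 9.67 and 9.95 (neurofibroma). Txnrd1, the cytosolic thioredoxin reductase, had a difference of -1.36 ± 0.16 in wild-type nerve and -1.47 ± 0.14 in mutant nerve (adjusted p = 1.41e-06 and 1.04e-07), and -0.96 ± 0.15 in neurofibroma, where it was just under 2-fold. In SCs Txnrd1 read 8.69, 8.21 and 8.68 in wild-type nerve, 8.18, 8.41 and 8.55 in mutant nerve and 8.52, 8.90 and 8.65 in neurofibroma. Txnrd1 in macrophages stood at 10.04, 9.77 and 9.85 (wild-type nerve), 10.03, 10.00, 9.85, 9.69 and 9.69 (mutant nerve) and 9.55, 9.53, 9.57 and 9.94 (neurofibroma). The SC and macrophage ranges did not meet in any tissue. Nqo1, a quinone reductase often used as an Nrf2 marker, was called in mutant nerve alone, at -1.31 ± 0.28 (adjusted p = 0.000952), with -0.93 ± 0.31 and -0.64 ± 0.29 in the other tissues.

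Taken by direction alone, the 11 genes in the groups of regulators, Nrf2 marker enzymes and glutathione synthesis all had an estimate below 0 in all 3 tissues, as had 29.5% of all genes. With no fold criterion, 9, 11 and 9 of the 11 were lower in SCs at an adjusted p under 0.05 in wild-type nerve, mutant nerve and neurofibroma, against 15.7%, 13.9% and 11.6% of all genes. These 3 groups were joined after their values had been seen. The regulators themselves differed in the same direction, all under 2-fold: Nfe2l2 by -0.34, -0.57 and -0.47, and Keap1 by -0.42, -0.83 and -0.80. Srxn1, which repairs peroxiredoxins, differed by -0.97, -0.99 and -0.72, and Gss, the second enzyme of glutathione synthesis, by -0.69, -0.83 and -0.71, also under 2-fold.

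**Figure D2:**
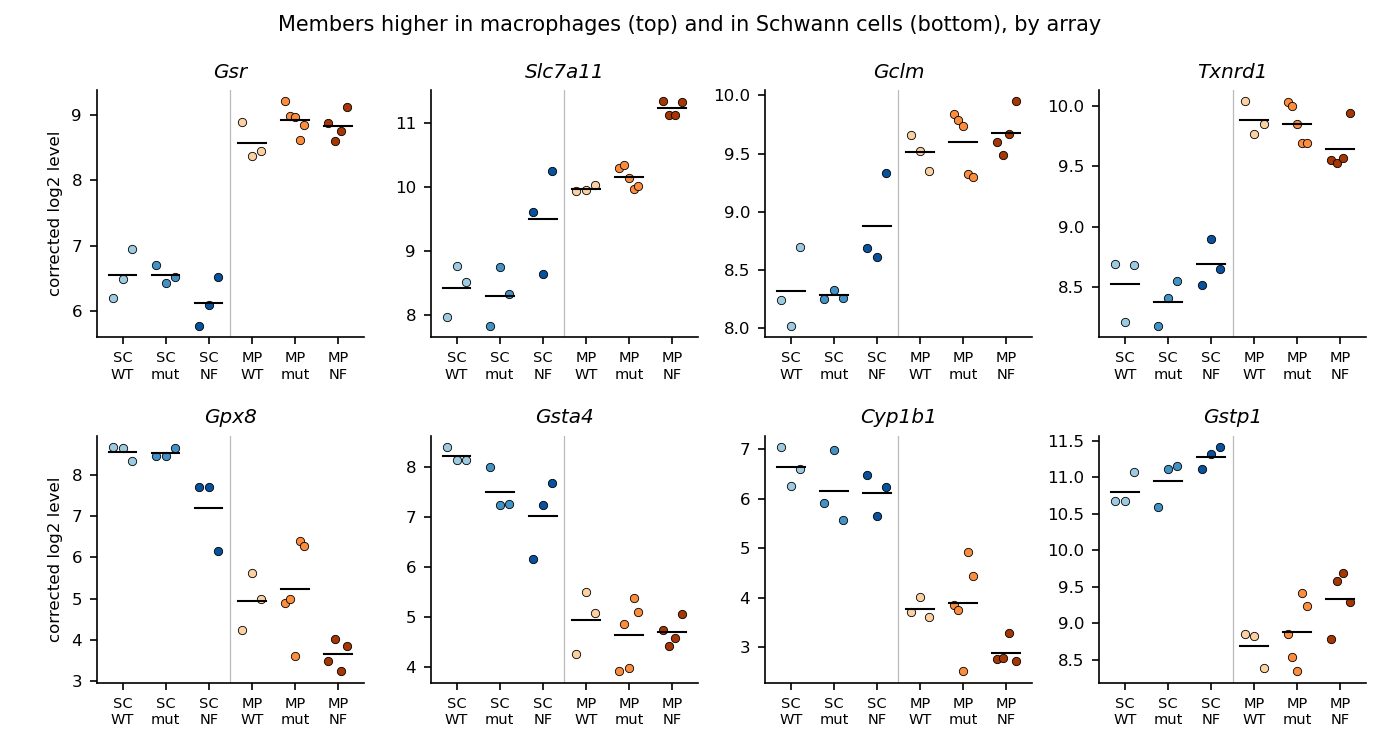
Corrected log2 level of 4 genes higher in macrophages (Gsr, Slc7a11, Gclm, Txnrd1) and 4 higher in SCs (Gpx8, Gsta4, Cyp1b1, Gstp1), 1 point per array, with the group mean as a line. WT is wild-type nerve, mut mutant nerve, NF neurofibroma and MP macrophages; in each gene the SC and macrophage points of the same tissue do not overlap.

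On the SC side the peroxidase Gpx8, an enzyme of the endoplasmic reticulum, had the largest difference of the 37 genes. In SCs Gpx8 read 8.67, 8.64 and 8.33 in wild-type nerve, 8.45, 8.44 and 8.64 in mutant nerve and 7.70, 7.71 and 6.16 in neurofibroma. Gpx8 in macrophages stood at 4.23, 5.62 and 5.0 (wild-type nerve), 4.88, 4.99, 3.60, 6.38 and 6.27 (mutant nerve) and 3.49, 4.03, 3.24 and 3.86 (neurofibroma). Macrophage arrays 14 and 15 of mutant nerve were the highest and array 13 the lowest of their group. The fibroblast marker mean of these 3 arrays was 6.15, 5.98 and 4.53, and their SC marker mean (20 genes) 5.90, 5.76 and 4.80. Their endothelial marker mean (10 genes) was 5.07, 4.96 and 3.51. These means were in the same order as Gpx8 at 6.38, 6.27 and 3.60, by which the arrays had been picked. Not every list was: the smooth muscle and pericyte mean was 4.88, 5.08 and 4.07 and the macrophage marker mean 9.06, 9.14 and 8.91. The part of these cell types in the spread of Gpx8 was not tested. Gpx8 was higher in SCs by 3.60 ± 0.54, 3.28 ± 0.48 and 3.53 ± 0.50, which is 12.1-, 9.74- and 11.6-fold (adjusted p = 2.47e-05, 1.71e-05 and 1.12e-05). Its relative Gpx7 was called in wild-type and mutant nerve (1.37 ± 0.31 and 1.23 ± 0.28) and had 0.77 in neurofibroma. The mutant-nerve call ended without macrophage array 13 (0.96). Leaving out the arrays that held seminal vesicle transcripts left 1 wild-type array of each cell type, too few to judge a call. The Gpx7 value in wild-type nerve was then 1.51. Gpx1, the abundant cytosolic peroxidase, was called in wild-type nerve alone, at 1.04 ± 0.20. Without SC array 2 or macrophage array 4 of that tissue the Gpx1 value was 0.84 to 1.0 and not called, and in mutant nerve and neurofibroma it was 0.96 and 0.62.

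Among the transferases, which couple glutathione to electrophiles, Gsta4, the form that handles the lipid aldehyde 4-hydroxynonenal, differed most. In SCs Gsta4 read 8.40, 8.13 and 8.14 in wild-type nerve, 7.99, 7.24 and 7.26 in mutant nerve and 6.17, 7.23 and 7.67 in neurofibroma. Gsta4 in macrophages stood at 4.26, 5.50 and 5.08 (wild-type nerve), 3.92, 4.86, 3.99, 5.38 and 5.11 (mutant nerve) and 4.75, 4.43, 4.58 and 5.07 (neurofibroma). Its difference was 3.28 ± 0.39, 2.85 ± 0.35 and 2.32 ± 0.37 (adjusted p = 1.74e-06, 2.40e-06 and 4.65e-05), and the lowest SC array, neurofibroma s4481, was still above every macrophage array. Gstp1, the pi-class transferase, was higher by 2.11 ± 0.26, 2.08 ± 0.23 and 1.95 ± 0.24, and Gstm2, of the mu class, by 1.75 ± 0.34, 2.04 ± 0.31 and 1.68 ± 0.32. Transferases of a class are close in sequence, so a value for Gstp1 or Gstm2 can hold signal from a relative. Gstt1 and the microsomal Mgst3 were called in wild-type nerve alone (1.21 ± 0.24 and 1.22 ± 0.22).

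All 4 oxidative or hydrolytic xenobiotic enzymes with a cluster were called higher in SCs in wild-type nerve and in neurofibroma, and 3 of the 4 in mutant nerve. Ephx1 in wild-type nerve fell under the fold criterion without SC array 1 or macrophage array 6 (0.94 to 0.96). Cyp1b1, a cytochrome P450 that acts on estrogens and aromatic hydrocarbons, had the largest difference of these. In SCs Cyp1b1 read 7.05, 6.25 and 6.60 in wild-type nerve, 5.92, 6.99 and 5.58 in mutant nerve and 6.48, 5.66 and 6.23 in neurofibroma. Cyp1b1 in macrophages stood at 3.71, 4.02 and 3.62 (wild-type nerve), 3.86, 3.76, 2.52, 4.93 and 4.45 (mutant nerve) and 2.77, 2.78, 3.29 and 2.72 (neurofibroma). The SC arrays stood above all macrophage arrays, by 2.85 ± 0.43, 2.26 ± 0.39 and 3.23 ± 0.41 (adjusted p = 3.16e-05, 0.000111 and 2.35e-06). The flavin monooxygenases Fmo1 and Fmo2, neighbors on chromosome 1, were higher in SCs by 2.59, 2.24 and 1.90 and by 2.57, 1.85 and 1.79. Sod3, the extracellular superoxide dismutase, was higher by 1.46 ± 0.24, 1.09 ± 0.22 and 1.07 ± 0.23. Sod3 was no longer called in mutant nerve without SC array 8 or macrophage array 13 (0.87 to 0.97), nor in neurofibroma without SC arrays s4481 or s4992 or macrophage array s4441 (0.77 to 0.98). Aldh1a1, a retinaldehyde dehydrogenase, was higher by 2.04 ± 0.37, 1.33 ± 0.33 and 2.96 ± 0.35, and Adh1, an alcohol dehydrogenase, and Aldh1a3, another retinaldehyde dehydrogenase, were called in mutant nerve alone (1.38 ± 0.32 and 1.24 ± 0.20). Adh1 rested on SC array 10 there, without which it was 0.74 and not called.

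The fibroblast list was higher in the same SC arrays in all 3 tissues, and so were 9, 7 and 9 of 10 endothelial and 9, 10 and 2 of 10 smooth muscle and pericyte markers. The part of these cell types in the genes higher in SCs was not tested. The labels also name 2 batches, and in mutant nerve all 5 macrophage arrays but only SC array 10 belong to batch 1. Batch 1 of mutant nerve held 1 SC and 5 macrophage arrays. There all 18 called genes kept their sign and 15 kept a difference over 1. Within batch 2 of wild-type nerve (2 SC against 3 macrophage arrays) all 19 kept their sign and 18 a difference over 1. The genes had been called from fits that included these same arrays, so kept signs are not an independent check. A part of the label batch in these differences was not tested by it.

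The wider pathway was read from 153 other genes of glutathione, thioredoxin, metal and xenobiotic handling. Of these, 21 were called higher and 18 lower in SCs in wild-type nerve, 14 and 21 in mutant nerve and 18 and 22 in neurofibroma. The shares of all genes called were 8.94% and 5.03%, 7.26% and 5.75%, and 6.50% and 5.91% in the same order, and the counts of the short lists that follow are to be read against them. Among 9 genes of superoxide handling and metal storage, 5 were higher in macrophages in each tissue and 2, 1 and 1 in SCs. Blvrb, a biliverdin reductase, differed by -3.14, -3.17 and -3.96, and Slc40a1, the iron exporter ferroportin, by -4.78, -5.01 and -3.33. Of 8 genes that supply NADPH, 2 were higher in macrophages and 1 in SCs in each tissue: the pentose phosphate enzymes Taldo1 (-1.80, -2.26 and -2.14) and Pgd (-1.72, -1.86 and -1.81), and malic enzyme Me1 (2.61, 2.47 and 1.91). Of 13 regulators of the Nrf2 pathway none was called in any tissue. Of 20 cytochrome P450 and Ah receptor genes 5, 4 and 5 were higher in SCs and 1, 2 and 1 lower. Of 21 thioredoxins, glutaredoxins and peroxiredoxins 3, 1 and 1 were higher and 1, 2 and 2 lower. Of 17 genes of glutathione breakdown, export and precursors 3, 1 and 4 were higher and 2, 2 and 3 lower. Of 37 other dehydrogenases, reductases and oxidases 4, 2 and 3 were higher and 5, 6 and 7 lower. Of 10 conjugating enzymes 2 were higher in each tissue and 0, 0 and 1 lower. Of 18 other glutathione peroxidases and transferases 1, 2 and 1 were higher and 2, 2 and 1 lower. Hpgds, a sigma-class transferase that makes prostaglandin D, was lower in SCs by 4.33 ± 0.27, 4.60 ± 0.24 and 4.46 ± 0.25, and the peroxisomal or mitochondrial transferase Gstk1 was higher by 3.41 ± 0.34, 2.25 ± 0.30 and 1.62 ± 0.32.

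The next comparison asked whether loss of Nf1 in SCs was seen in these genes before tumors form. None of the 37 was called between mutant and wild-type nerve in either cell type in limma, where no gene of the array was called at all (0%). With the array set as a term 1 gene was called in SCs, none of the 37. At an unadjusted p under 0.05 there were 5 of the 37 in SCs and 4 in macrophages, where 7.32% and 16.5% of all genes passed. In SCs the largest was Aldh1a1, at -1.33 ± 0.41 (adjusted p = 0.669). In SCs Aldh1a1 read 7.05, 6.32 and 6.02 in wild-type nerve, 5.34, 5.37 and 4.70 in mutant nerve and 7.92, 7.34 and 6.22 in neurofibroma. The 3 mutant arrays lay below the 3 wild-type arrays and the neurofibroma arrays overlapped with wild type. Aldh1a1 in macrophages stood at 4.07, 4.35 and 4.83 (wild-type nerve), 3.70, 4.46, 3.50, 3.96 and 3.39 (mutant nerve) and 3.81, 4.40, 3.94 and 4.65 (neurofibroma). The macrophage groups overlapped. In macrophages of the 1-month groups genotype and label batch cannot be told apart, since the wild-type arrays are all of batch 2 and the mutant arrays all of batch 1.

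The question of whether the 2 cell types changed differently on the way to neurofibroma is the comparison with age that does not rest on the universal controls. From mutant nerve to neurofibroma 2 of the 37 genes were called in this difference, Cat and Ephx1, against 2.12% of all genes. From wild-type nerve 4 were called, Cat, Ephx1, Mgst1 and Mgst3, against 3.82%. Catalase, encoded by Cat (chr2:103453904-103485153), breaks down hydrogen peroxide in peroxisomes. In SCs Cat read 8.11, 8.39 and 8.14 in wild-type nerve, 8.61, 7.62 and 7.65 in mutant nerve and 6.51, 7.15 and 7.15 in neurofibroma. Cat in macrophages stood at 8.75, 8.28 and 8.08 (wild-type nerve), 8.78, 8.35, 8.30, 8.24 and 8.25 (mutant nerve) and 8.69, 8.61, 8.43 and 9.14 (neurofibroma). In 1-month tissue the SC and macrophage arrays overlapped, and in neurofibroma every SC array was below every macrophage array. The SC minus macrophage difference was -0.16 ± 0.25 in wild-type nerve, -0.42 ± 0.23 in mutant nerve and -1.78 ± 0.24 in neurofibroma (adjusted p = 0.682, 0.185 and 4.87e-06), so that the change differed by -1.36 ± 0.33 from mutant nerve (adjusted p = 0.0263) and -1.62 ± 0.35 from wild-type nerve (adjusted p = 0.00861). The former rested on SC array 8 of mutant nerve, which at 8.61 was above the other 2: without it the value was -1.0 (adjusted p = 0.067), and it was also not called without SC array s4481 (-1.18) or macrophage array s4486 (-1.24) of neurofibroma, nor with the label batch as a term (-1.15, adjusted p = 0.148).

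Ephx1, microsomal epoxide hydrolase (chr1:180989556-181017569), opens reactive epoxides, and it differed in the other direction. In SCs Ephx1 read 7.09, 6.70 and 6.47 in wild-type nerve, 6.53, 6.28 and 6.18 in mutant nerve and 6.70, 6.33 and 6.73 in neurofibroma. Ephx1 in macrophages stood at 5.92, 5.67 and 5.24 (wild-type nerve), 5.48, 5.12, 5.57, 5.26 and 5.33 (mutant nerve) and 4.37, 4.55, 4.09 and 4.0 (neurofibroma). The SC groups overlapped across the 3 tissues, while the 4 neurofibroma macrophage arrays were below all 8 macrophage arrays of 1-month tissue. SCs exceeded macrophages by 1.15 ± 0.19, 0.98 ± 0.17 and 2.34 ± 0.18 in the 3 tissues (adjusted p = 0.000109, 0.000164 and 3.24e-09). The change differed between the cell types by 1.36 ± 0.25 from mutant nerve (adjusted p = 0.00453) and by 1.19 ± 0.27 from wild-type nerve (adjusted p = 0.0118), and no single array ended either call. When the 5 arrays with seminal vesicle transcripts were left out, 1 array remained in each wild-type group, too few to judge a call. From wild-type nerve Cat then had -1.18 and Ephx1 1.11. From mutant nerve both were called (-1.45 and 1.30).

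Mgst1 and Mgst3 are membrane-bound transferases that also reduce lipid peroxides. In SCs Mgst1 read 7.30, 7.20 and 6.98 in wild-type nerve, 7.55, 6.56 and 6.95 in mutant nerve and 6.07, 5.84 and 6.32 in neurofibroma. Mgst1 in macrophages stood at 5.92, 6.45 and 6.28 (wild-type nerve), 6.85, 6.38, 6.45, 6.22 and 6.74 (mutant nerve) and 6.58, 5.80, 6.41 and 6.82 (neurofibroma). Mgst1 was above macrophages in wild-type SCs and overlapped with them in neurofibroma, a difference in change of -1.27 ± 0.34 (adjusted p = 0.0352). In SCs Mgst3 read 6.02, 6.54 and 6.09 in wild-type nerve, 5.92, 6.09 and 6.19 in mutant nerve and 3.60, 4.58 and 4.33 in neurofibroma. Mgst3 in macrophages stood at 4.66, 4.88 and 5.44 (wild-type nerve), 5.27, 5.07, 5.44, 5.15 and 5.17 (mutant nerve) and 3.94, 4.29, 3.98 and 3.95 (neurofibroma). For Mgst3, which was lower in neurofibroma in both cell types, the difference in change was -1.09 ± 0.30 (adjusted p = 0.0375). Both were just outside the threshold with the array set as a term (adjusted p = 0.0513 and 0.0615) and leaving out any of 9 of the 13 arrays ended the call for Mgst1 (-1.11 to -1.30: SC arrays 1, 2, s4481 and s4486, macrophage arrays 4, 6, s4441, s4481 and s4486). For Mgst3 6 arrays did so (-0.78 to -1.11: SC arrays 2 and s4481, macrophage arrays 4, 5, s4448 and s4481). Without the arrays that held seminal vesicle transcripts, where the calls cannot be judged, Mgst1 had -1.86 and Mgst3 -1.33.

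**Figure D3:**
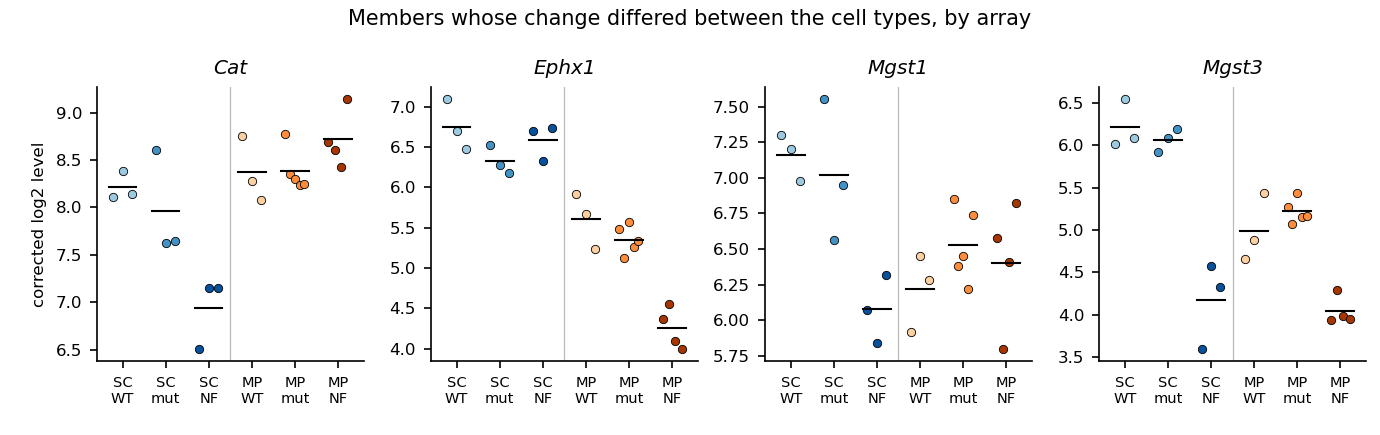
Corrected log2 level of Cat, Ephx1, Mgst1 and Mgst3 in every array, grouped by cell type (SC or macrophage, MP) and tissue (WT wild-type nerve, mut mutant nerve, NF neurofibroma), with the group mean as a line. Cat separates the cell types in neurofibroma alone, and Ephx1 is lowest in the 4 neurofibroma macrophage arrays.

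Markers of some other cell types moved with these results. In neurofibroma SCs the mean of 10 smooth muscle and pericyte markers was 4.63 to 5.12, against 6.39 to 7.39 in 1-month SCs, and 3.58 to 3.75 against 4.01 to 5.30 in macrophages, with 4 of the 10 called for a differing change from mutant nerve. The mean of 20 macrophage markers was 4.97 to 5.40 in neurofibroma SCs and 3.99 to 4.71 in 1-month SCs. For 10 endothelial markers it was 6.20 to 7.91 in neurofibroma SCs and 5.53 to 6.68 in 1-month SCs. The mean of 8 perineurial markers overlapped, at 5.77 to 6.00 and 5.66 to 6.65. In macrophages the mean of 20 SC markers was 4.28 to 4.62 in neurofibroma, against 4.79 to 5.25 in wild-type and 4.80 to 5.90 in mutant nerve. The macrophage mean of 18 fibroblast markers was 4.16 to 4.26, against 5.66 to 6.19 and 4.53 to 6.15. The part of these cell types in the values of Cat, Ephx1, Mgst1 and Mgst3 was not tested.

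Last, each cell type was compared between neurofibroma and 1-month tissue, a comparison in which the size of every change depends on the universal controls. With ComBat, which takes the offset between the array sets as known, the comparison of neurofibroma SCs with mutant-nerve SCs called 1 gene higher and 7 lower (2.52% and 3.11% of all genes), and 0 and 12 against wild-type SCs (2.37% and 4.10%). In macrophages 1 was called higher and 6 lower against mutant nerve (2.62% and 2.34%) and 1 and 4 against wild-type nerve (3.30% and 2.94%). Together these were 16 different genes. The universal controls differed by -0.63 for the median gene (7-month minus 1-month set). Of the genes called lower, 6 of 7 and 9 of 12 in SCs had a control difference above it, against mutant and wild-type nerve. In macrophages 4 of 6 and 2 of 4 did. For such genes the correction lowers the 7-month arrays relative to other genes. When the array set was a term in the fit, which lets the uncertainty of that pair of controls count, none of the 37 was called in any of the 4 comparisons (0.230%, 0.311%, 0.225% and 0.207% of all genes in the order given), although with ComBat 17, 22, 20 and 17 of the 37 had an unadjusted p under 0.05, as had 32.4%, 33.3%, 45.1% and 45.7% of all genes. The estimates were close in both fits and only their intervals differed.

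**Figure D4:**
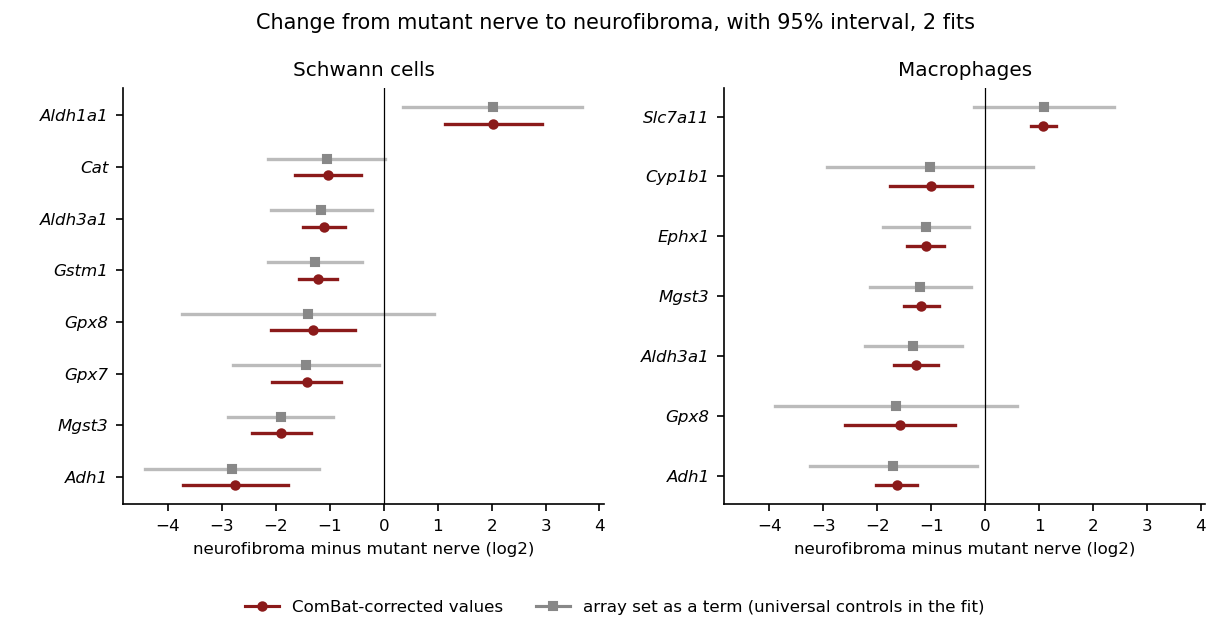
Change in log2 level from mutant nerve to neurofibroma in SCs (8 genes) and macrophages (7 genes) for the genes called after ComBat, with 95% intervals. Circles come from ComBat-corrected values and squares from a fit with the array set as a term and the universal controls included; the squares lie near the circles but their intervals are wider.

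Mgst3 and Gpx7 were called in both SC comparisons under ComBat, centering and quantile normalization, and neither with the array set as a term. Mgst3 was lower in neurofibroma SCs by 1.90 ± 0.25 than in mutant nerve and by 2.05 ± 0.25 than in wild-type nerve after ComBat (adjusted p = 0.00166 and 0.00102). It was also called when deposited arrays were only centered on their medians (-1.48 and -1.68) or quantile normalized (-1.66 and -1.74), and had an adjusted p of 0.104 and 0.0609 with the array set as a term. Gpx7 was lower in SCs by 1.43 ± 0.29 and 1.44 ± 0.29 (adjusted p = 0.0103 and 0.00901). Without the arrays that held seminal vesicle transcripts Gpx7 was not called against mutant nerve (-1.18), where Mgst3 was (-1.99). Against wild-type nerve, with 1 wild-type SC array left, Gpx7 had -1.21 and Mgst3 -1.93. In SCs Gpx7 read 6.16, 6.37 and 5.94 in wild-type nerve, 6.38, 6.30 and 5.74 in mutant nerve and 5.37, 4.61 and 4.16 in neurofibroma. Gpx7 in macrophages stood at 4.67, 4.80 and 4.88 (wild-type nerve), 5.01, 4.96, 3.95, 5.11 and 5.55 (mutant nerve) and 4.09, 3.76, 4.27 and 3.67 (neurofibroma). Its 3 neurofibroma SC arrays were below the 6 younger SC arrays. In the same neurofibroma SC arrays 8 of 18 fibroblast and 8 of 10 smooth muscle and pericyte markers were called lower than in mutant nerve after ComBat, and their part was not tested.

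Adh1 is at the low end of the array in neurofibroma, where 6 of 7 arrays were below the first quartile, so the size of its difference is uncertain. It had -2.75 ± 0.44 in SCs against mutant nerve (adjusted p = 0.00378) and -1.86 ± 0.44 against wild-type nerve (adjusted p = 0.0176), with -1.64 ± 0.18 and -2.14 ± 0.20 in macrophages. Against wild-type SCs it was -0.96 with centering, -1.0 with quantile normalization and -0.96 as a mean over its clusters, and in macrophages against mutant nerve -0.72, -0.88 and -0.82 in the same order and -0.80 with the label batch as a term, none of them called. In SCs Adh1 read 4.16, 3.96 and 4.35 in wild-type nerve, 4.02, 4.96 and 6.18 in mutant nerve and 1.98, 2.12 and 2.80 in neurofibroma. Adh1 in macrophages stood at 3.72, 4.19 and 4.60 (wild-type nerve), 3.48, 4.12, 3.61, 3.57 and 3.58 (mutant nerve) and 2.20, 1.94, 1.78 and 2.20 (neurofibroma). All neurofibroma arrays of both cell types were below all 1-month arrays. The universal control did not show the usual offset for this gene, with 7.30 in the 1-month set and 7.43 in the 7-month set where the median gene differed by -0.63, so the correction lowers the 7-month arrays of Adh1 relative to other genes. Gstm1, a mu-class transferase called lower in SCs (-1.22 ± 0.16 and -1.23 ± 0.16), and Aldh3a1, an aldehyde dehydrogenase called lower in both cell types, were of the same kind, with 0.46 and 0.61 between the universal controls. Under centering alone Gstm1 had 0.04 against mutant nerve and -0.01 against wild-type nerve, and Aldh3a1 had 0.31 and -0.26 in SCs and 0.12 and 0.34 in macrophages, so the sign turned for Gstm1 against mutant nerve and for Aldh3a1 in all but the comparison with wild-type SCs. Under quantile normalization Gstm1 had -0.20 and -0.13, and neither was called. In SCs Gstm1 read 6.30, 6.09 and 6.10 in wild-type nerve, 6.32, 5.97 and 6.18 in mutant nerve and 5.13, 4.92 and 4.74 in neurofibroma. Gstm1 in macrophages stood at 5.69, 5.94 and 5.64 (wild-type nerve), 5.95, 5.39, 5.71, 5.41 and 5.88 (mutant nerve) and 5.16, 4.73, 4.44 and 5.18 (neurofibroma). After the correction the neurofibroma arrays of both cell types were below the younger arrays for Gstm1. In SCs Aldh3a1 read 3.70, 3.09 and 3.35 in wild-type nerve, 2.78, 2.78 and 3.02 in mutant nerve and 1.58, 1.85 and 1.82 in neurofibroma. Aldh3a1 in macrophages stood at 3.28, 2.76 and 2.43 (wild-type nerve), 2.84, 2.97, 3.02, 3.38 and 2.69 (mutant nerve) and 1.33, 1.76, 1.73 and 2.0 (neurofibroma). Aldh3a1 was below the first quartile in every neurofibroma array.

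Against wild-type SCs, the other genes called lower in neurofibroma were Fmo1 (-1.70 ± 0.37), Gpx8 (-1.36 ± 0.35), Cat (-1.28 ± 0.28), Sod3 (-1.23 ± 0.28), Gsta4 (-1.20 ± 0.34), Gpx1 (-1.18 ± 0.15) and Mgst1 (-1.08 ± 0.24). Of the 12 genes called there, Fmo1, Gpx7, Gsta4 and Mgst3 were called with centering and with quantile normalization as well. Without the arrays that held seminal vesicle transcripts Fmo1 had -2.13, Gpx7 -1.21 and Gsta4 -1.66. With 1 wild-type SC array left, these calls cannot be judged. In SCs Fmo1 read 7.77, 7.77 and 7.36 in wild-type nerve, 7.74, 6.67 and 6.36 in mutant nerve and 5.66, 5.53 and 6.62 in neurofibroma. Fmo1 in macrophages stood at 5.16, 5.13 and 4.85 (wild-type nerve), 4.68, 4.41, 4.48, 5.10 and 4.79 (mutant nerve) and 4.11, 4.12, 4.0 and 3.93 (neurofibroma). In SCs Gpx1 read 10.80, 10.88 and 10.74 in wild-type nerve, 10.87, 10.46 and 10.54 in mutant nerve and 9.66, 9.63 and 9.59 in neurofibroma. Gpx1 in neurofibroma SCs was below every younger SC array, and Fmo1 was below every wild-type array. Gpx1 in macrophages stood at 9.40, 10.08 and 9.82 (wild-type nerve), 9.43, 9.39, 9.72, 9.91 and 9.89 (mutant nerve) and 8.82, 9.30, 8.61 and 9.32 (neurofibroma). In SCs Sod3 read 6.08, 6.13 and 6.03 in wild-type nerve, 6.06, 5.36 and 5.45 in mutant nerve and 5.36, 4.21 and 4.99 in neurofibroma. Sod3 in macrophages stood at 4.49, 4.62 and 4.76 (wild-type nerve), 4.59, 4.69, 4.07, 4.77 and 4.56 (mutant nerve) and 3.46, 4.04, 3.92 and 3.73 (neurofibroma). Sod3 of neurofibroma was at or below the lowest younger array of its cell type. Single arrays ended several of these calls: Gsta4 without SC arrays 1, 2, 3, s4481 or s4486 (-0.85 to -1.28), Gpx8 without 1, 2 or s4992 (-0.99 to -1.31), Sod3 without 2 or s4486 (-0.85 to -1.20), Mgst1 without s4486 (-0.97) and Adh1 without 3, s4481 or s4486 (-1.75 to -1.79). Against mutant nerve Gpx8 (-1.32 ± 0.35) was lost without 8, 9, 10 or s4992 (-0.95 to -1.36) and Cat (-1.03 ± 0.28) without 8, s4481 or s4486 (-0.67 to -1.11). With centering and with quantile normalization Gpx8 had -0.48 and -0.85 against mutant nerve, and Cat had -0.44 and -0.81, none of them called. When the 5 arrays with seminal vesicle transcripts were left out, 5 genes were called against mutant nerve and 5 against wild-type nerve in SCs.

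In the other direction, Aldh1a1 was higher in neurofibroma SCs than in mutant-nerve SCs by 2.03 ± 0.41 (4.07-fold, adjusted p = 0.00978), and by 0.70 ± 0.41 over wild-type SCs, which was not called (adjusted p = 0.257). It had 1.74 under centering and 1.47 under quantile normalization, the latter not called (adjusted p = 0.0687), and an adjusted p of 0.42 with the array set as a term. In macrophages Slc7a11 was called higher, by 1.08 ± 0.11 against mutant nerve and 1.26 ± 0.12 against wild-type nerve (adjusted p = 1.20e-05 and 1.52e-05), and in SCs it had 1.19 ± 0.38 and 1.08 ± 0.38 (adjusted p = 0.0587 and 0.0769). The universal controls differed by -1.41 for Slc7a11, more than the -0.63 of the median gene. They read 4.56 and 3.15, far below the level of Slc7a11 in macrophages. With centering the macrophage values were 0.53 and 0.77 and with quantile normalization 0.24 and 0.38, none of them called. The label batch as a term gave 0.76 for Slc7a11 in macrophages against mutant nerve, also not called. Its change did not differ between the cell types beyond the error (0.11 ± 0.37 from mutant nerve, adjusted p = 0.94).

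Ephx1, described above, was called lower in neurofibroma macrophages by 1.10 ± 0.16 and 1.36 ± 0.18 (adjusted p = 0.000173 and 0.000125) and was called under centering (-1.03 and -1.22) and quantile normalization (-1.08 and -1.47). With the label batch as a term it was -0.96 against mutant nerve and not called. The remaining macrophage calls were Gpx8, Mgst3 and Cyp1b1 against mutant nerve (-1.57 ± 0.47, -1.18 ± 0.15 and -1.01 ± 0.35) and Fmo1 against wild-type nerve (-1.01 ± 0.16). Gpx8 was not called with centering or quantile normalization (-0.74 and -0.78, adjusted p = 0.289 and 0.316), nor was Mgst3 (-0.78 and -0.84). Neurofibroma macrophages had 10 of 18 fibroblast markers called lower than mutant-nerve macrophages and 12 of 18 lower than wild-type macrophages after ComBat, and 9 and 2 of 20 SC markers. The groups overlapped for Gpx8 and Cyp1b1 against mutant nerve, and the Cyp1b1 call ended when any array other than macrophage array 13 was left out (-0.72 to -1.09). Gpx8 was lost without s4441 or s4481 (-1.46 to -1.52), Fmo1 without 4, 5, s4481 or s4486 (-0.94 to -0.99), and Aldh3a1 against wild-type nerve without 4 (-0.87). Batch and tissue cannot be told apart in the comparison of macrophages with mutant nerve, because all 5 mutant arrays and none of the neurofibroma arrays are labelled batch 1. Among the 153 other pathway genes, 5 were called higher and 11 lower in neurofibroma SCs against mutant nerve and 6 and 11 in macrophages after ComBat, with 1 and 0 in each cell type when the array set was a term.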

How the data were processed

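RNA of sorted SCs and macrophages was hybridized to Affymetrix Mouse Gene 2.0 ST arrays (21 sorted arrays and 2 universal controls). The log2 values of 41345 transcript clusters were deposited by the authors after RMA in Affymetrix Expression Console 1.3.1.187, with mm10 given in the submitters' processing notes. Clusters naming 1 gene were kept, 23521 in all, and the cluster with the highest mean stood for each of 22180 genes. The 2 array levels do not follow the batches named in the labels. They were corrected with ComBat, written in R 4.3.3 with the groups and the universal controls as covariates, after which array medians were 3.46 to 3.58. This step takes the offset between array sets as known.

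limma 3.58.1 was run over all genes, with 6 groups in 1 fit for the comparisons of cell types and 1 fit per cell type otherwise, and Benjamini-Hochberg adjustment over all 22180 genes. The scripts were tested on simulated data. The samples are sorts of pooled or single animals, so p-values measure the spread between these samples, part of which may be technical, and the number of arrays limits the precision. Animals s4481 and s4486 gave both cell types in neurofibroma (correlation within animals 0.084). Alternatives changed the correction, normalization, batch, filter, variance model, cluster choice and arrays used. The genes and lists were chosen with earlier results of these data known. Values per array are given for genes called in neurofibroma comparisons or in the differing change, and for the 3 largest differences between cell types in each direction. Gclm was added after its values were seen.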

Additional observations from a re-analysis of the deposited data

Results flagged for a closer look

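A single array stood apart from the rest of its group by Dixon's test in 7 of 74 groups of 4 or 5 arrays, where chance flags about 1 in 20. In macrophages of mutant nerve these were Cat in array 11 (8.78, the others 8.24 to 8.35) and Adh1 in array 12 (4.12, the others 3.48 to 3.61). In neurofibroma macrophages they were Txnrd1 (9.94 against 9.53 to 9.57) and Gpx3 (5.16 against 4.96 to 5.0) in array s4486, Mgst3 (4.29 against 3.94 to 3.98) and Sod1 (11.25 against 11.37 to 11.39) in array s4448, and Cyp1b1 in array s4481 (3.29 against 2.72 to 2.78).

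The change to neurofibroma differed between SCs and macrophages for Cat (-1.36 from mutant and -1.62 from wild-type nerve, limma adjusted p = 0.0263 and 0.00861), Ephx1 (1.36 and 1.19, adjusted p = 0.00453 and 0.0118), and, from wild-type nerve, Mgst1 (-1.27, adjusted p = 0.0352) and Mgst3 (-1.09, adjusted p = 0.0375).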

How the results depend on the processing

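Counts of the 37 genes called between cell types moved under 1.5-fold in all alternatives except without the fold criterion (28 in mutant nerve, 22 in neurofibroma). Comparisons of neurofibroma with 1-month tissue moved most. With the array set as a term they gave 0 in SCs against mutant nerve, 0 against wild type, 0 in macrophages against mutant nerve and 0 against wild type, and 2 for the differing change from wild type. Centered deposited values gave 7 in SCs against wild type (2 higher, 5 lower) and 3 in macrophages against mutant nerve (1 higher, 2 lower), and shifted the split against mutant nerve in SCs to 4 higher and 3 lower and against wild type in macrophages to 2 and 3. Quantile normalization gave 3 in SCs against mutant nerve, 5 against wild type, 3 in macrophages against mutant nerve and 2 for the differing change from wild type. The label batch as a term gave 1 in macrophages against mutant nerve and 1 and 2 for the differing change from mutant nerve and wild type, and label batch 2 alone gave 2 for the latter. Without the fold criterion 13 were called in SCs against mutant nerve, and 18 and 13 in macrophages against mutant nerve and wild type. Without the 5 arrays that held seminal vesicle transcripts, a setting chosen after seeing the data, SCs gave 5 against mutant nerve. This setting left 1 array in each wild-type group, too few to judge calls against wild type. The cause of these shifts was not tested.

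Signs turned for Aldh3a1 with centering (against mutant nerve 0.31 in SCs and 0.12 in macrophages, 0.34 in macrophages against wild type) and quantile normalization (0.09 in SCs against mutant nerve, 0.09 in macrophages against wild type), and for Gstm1 with centering (0.04 in SCs against mutant nerve). Leaving out 1 array at a time gave 18 to 22, 17 to 22 and 12 to 15 called between cell types in wild-type nerve, mutant nerve and neurofibroma. For SCs it gave 7 to 10 against mutant nerve and 9 to 13 against wild type, for macrophages 6 to 8 and 4 to 6, for the differing change 1 to 3 and 2 to 6, and 0 to 0 between mutant and wild-type nerve in both. With the replicate block for animals s4481 and s4486 all 56 calls it touched held, including Cat (-1.37, limma adjusted p = 0.0213) and Ephx1 (1.37, adjusted p = 0.00353) from mutant nerve. Of 88 calls in all, 54 held with the array set as a term. These include all calls between cell types within a tissue (19, 18 and 13), from which an offset between array sets cancels. The within-tissue calls are therefore no check on the array set. Of the calls for neurofibroma against 1-month tissue none held. For the differing change 2 held from mutant nerve and 2 from wild-type nerve.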
